A study of Mus musculus with 6 samples.

Results

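The genes described here encode the enzymes that carry glucose and glycogen to pyruvate and lactate in muscle, with the regulators and transporters that serve them. They are 37 listed gene names, matched by name in the count table, and they occupy 38 of its 53084 rows because Aldoa is listed on a pair of rows. Muscle RNA came from 3 Tarsl2+/+ (WT) and 3 Tarsl2-/- (KO) mice, male, C57BL/6 and 6 weeks old, 1 library per mouse, and the name of the muscle was not given in the sources used here. Tarsl2 encodes a threonyl-tRNA synthetase-like protein, and the Tarsl2-/- mice carry a CRISPR/Cas9 deletion of its exon 3 in every cell. Both genotypes were kept on standard chow in a specific pathogen-free facility.

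Glycolysis splits glucose 6-phosphate into pyruvate, and in muscle much of that sugar phosphate comes from stored glycogen. Phosphofructokinase sets the pace of the upper steps, and the PFKFB enzymes make and remove its activator fructose 2,6-bisphosphate. Lactate dehydrogenase interconverts pyruvate and lactate, and monocarboxylate transporters move lactate across the membrane. Several steps have an isozyme that prevails in muscle, such as Pfkm, Pgam2, Eno3 and Pygm.

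The targeted gene was read in each library. Tarsl2 had 456, 605 and 464 counts in WT mice 583, 584 and 595, and 40, 30 and 37 counts in KO mice 588, 589 and 591. Library totals ran from 16176591 to 20123767 counts, and the member rows took between 2.33% and 2.70% of them. Levels are given below as CPM, the CPM of edgeR (counts scaled to a common library size) after TMM scaling, which trims the genes that differ most between libraries. A count of 3 was worth 0.146 to 0.187 CPM, which covers counting error only. The 5 defining muscle fibre genes summed to between 80645 and 86046 CPM in WT and between 88281 and 96293 CPM in KO mice, without overlap, whereas the heart and retina marker lists were at or below 0.312 CPM in every library.

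Of the 37 member rows with enough counts to be tested, 2 were higher in Tarsl2-/- muscle, Fbp2 and Ldhb, and none was lower. A row was called at an adjusted p under 0.05 (edgeR's quasi-likelihood test, Benjamini-Hochberg over all 15075 genes tested). Among all genes tested, 2.27% were called in either direction, 0.896% higher and 1.37% lower. An unadjusted p under 0.05 was found by edgeR for 9 of the 37 member rows and for 2983 of all 15075 genes tested. DESeq2 and limma-voom also called 0 member rows lower. Aldoc, the brain aldolase, was at or below 0.437 CPM in every library and was not tested.

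The promoters of the called genes and of Ldha, the partner of Ldhb in the same enzyme, are shown because they are the sequences next to the members whose counts moved and to a close relative that was not called. The bases are from RefSeq on GRCm38.p6, lie 5′ of the RefSeq start, hold no base of an annotated exon, and are read 5′ to 3′ on the gene's strand. The Ldha window lies inside the gene as the count table gives it, chr7:46841475-46855627. Its RefSeq start is therefore not the 5′ end of that gene. Capitals mark ACGTG, which every CACGTG (an E-box) contains, CAGCTG (an E-box of the kind bound by myogenic factors), TATAAA and AGGTCA (a nuclear receptor half-site), on either strand.
Fbp2, chr13:62858423-62858650, minus strand: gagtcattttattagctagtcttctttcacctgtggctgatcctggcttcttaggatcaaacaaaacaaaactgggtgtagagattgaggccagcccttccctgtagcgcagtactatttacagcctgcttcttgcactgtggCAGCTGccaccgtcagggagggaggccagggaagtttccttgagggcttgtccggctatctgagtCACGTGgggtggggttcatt
Ldhb, chr6:142507958-142508207, minus strand: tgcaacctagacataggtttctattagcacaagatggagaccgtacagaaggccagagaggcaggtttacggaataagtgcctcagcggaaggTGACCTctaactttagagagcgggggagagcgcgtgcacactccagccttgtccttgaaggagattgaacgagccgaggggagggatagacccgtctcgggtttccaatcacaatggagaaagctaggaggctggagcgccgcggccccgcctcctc
Ldha, chr7:46845554-46845803, plus strand: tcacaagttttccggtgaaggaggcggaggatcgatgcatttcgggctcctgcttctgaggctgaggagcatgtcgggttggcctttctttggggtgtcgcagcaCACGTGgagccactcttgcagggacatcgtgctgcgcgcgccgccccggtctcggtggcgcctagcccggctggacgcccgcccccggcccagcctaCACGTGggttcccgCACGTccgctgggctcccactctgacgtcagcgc
The Fbp2 window holds a CAGCTG and a CACGTG. The Ldhb window holds neither and has an AGGTCA on the opposite strand. The Ldha window holds 2 copies of CACGTG and a further ACGTG. The shares that follow are over all 250 bases before the RefSeq start, with bases of annotated exons left in, unlike the printed windows. CACGTG was found in 5 of 37 member promoters (13.5%) and in 6.02% of all 32851 RefSeq promoters. CAGCTG was found in 10 of 37 (27.0%) and in 13.0% of all. The shorter ACGTG was found in 14 of 37 member promoters (37.8%) and in 16.6% of all. AGGTCA was found in 3 of 37 member promoters (8.11%) and in 14.0% of all, and TATAAA in 2 of 37 (5.41%) and 12.4%. Some of these member matches lay only in bases that the trimming of exons removes. They were the CAGCTG of Gpi1, Pfkfb1, Gys1 and Pkm, the ACGTG of Pfkfb3, Pgm2 and Ugp2, and the TATAAA of Pgm2. These are matches of letters and do not show that a factor binds there.

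Fbp2 encodes the muscle fructose-1,6-bisphosphatase, which runs the phosphofructokinase step in reverse. Its levels were 16.8, 20.1 and 16.4 CPM in WT mice 583, 584 and 595 and 25.8, 29.4 and 26.8 CPM in KO mice 588, 589 and 591. Every KO mouse was above every WT mouse. The mean was 17.8 ± 2.06 CPM in WT and 27.4 ± 1.87 CPM in KO muscle (SD, n = 3), a log2 fold change of 0.62 (KO over WT, SE 0.11, adjusted p = 0.0174 by edgeR). The call was lost without WT mouse 583 (adjusted p = 0.0874 by edgeR), WT mouse 595 (0.0693), KO mouse 589 (0.0605) or KO mouse 591 (0.0576), and the log2 fold change stayed between 0.56 and 0.72 over all 14 alternatives.

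Ldhb encodes the lactate dehydrogenase subunit that prevails in heart and slow muscle. Its levels were 56.8, 65.9 and 71.0 CPM in WT mice 583, 584 and 595 and 81.4, 119.5 and 91.8 CPM in KO mice 588, 589 and 591. The genotypes did not overlap, and KO mouse 589 stood highest. The mean was 64.6 ± 7.19 CPM in WT and 97.6 ± 19.7 CPM in KO muscle (SD, n = 3), a log2 fold change of 0.59 (SE 0.14, adjusted p = 0.0498 by edgeR). Of its transcript's 31-base words, 41.4% also occur in another gene's transcript, all of them in the pseudogene Gm5514, which had at most 6 counts in any library, whereas no such word of Fbp2 is shared. The adjusted p lies just inside the threshold, and 5 of 14 alternatives kept the call. It was lost under limma-voom (adjusted p = 0.0530), RLE size factors (0.0501), upper quartile scaling (0.0516) and library totals without TMM (0.0510). It was also lost by edgeR without WT mouse 583 (adjusted p = 0.175), WT mouse 584 (0.0587), WT mouse 595 (0.0893), KO mouse 589 (0.128) or KO mouse 591 (0.0989).

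**Figure D1:**
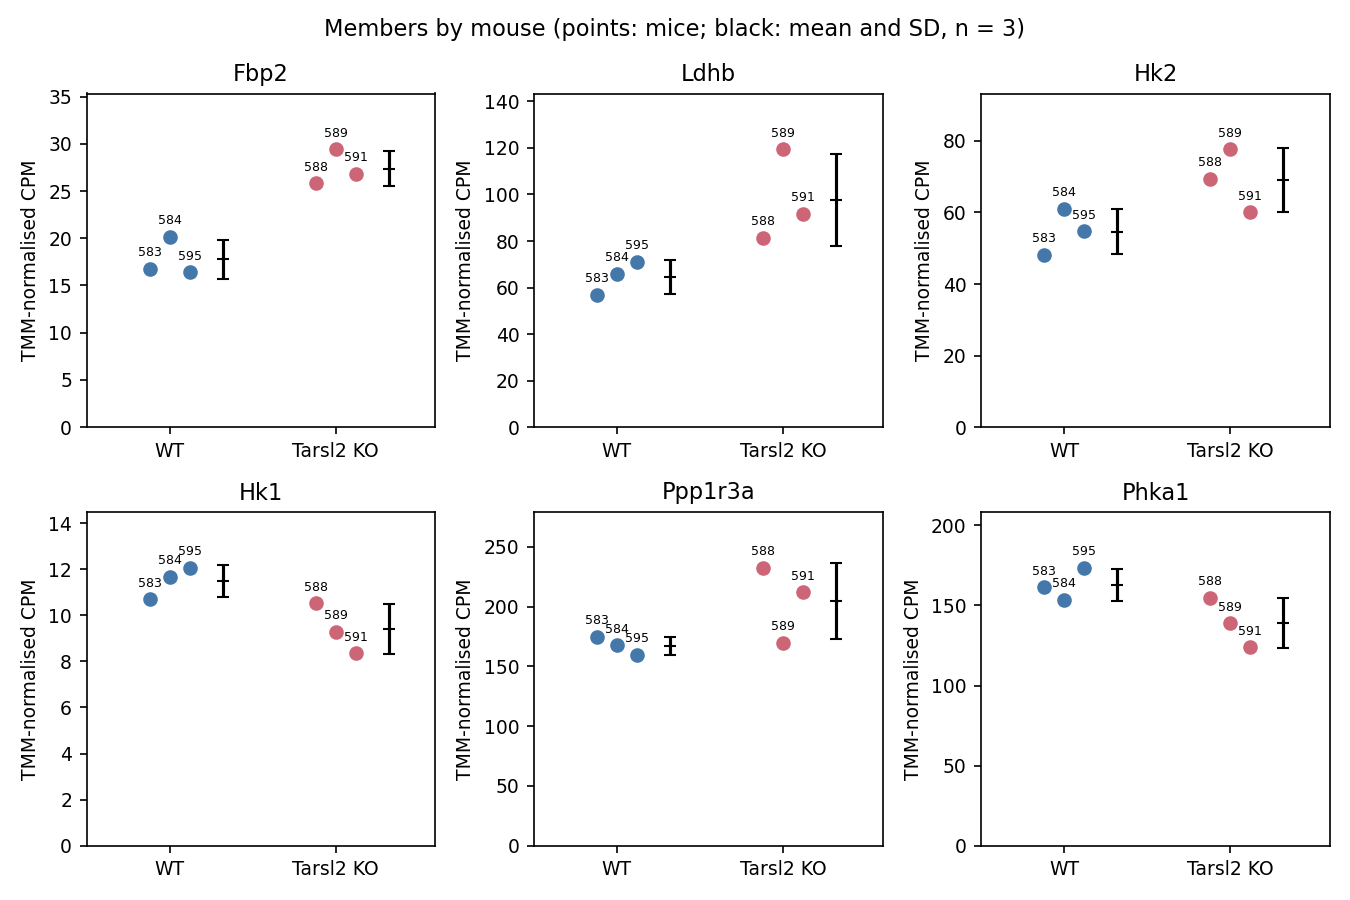
TMM-normalised CPM (vertical axis, from 0) of 6 members in each WT and Tarsl2 KO mouse, labelled by mouse number, with the mean and SD of 3 mice in black. Fbp2, Ldhb and Hk1 do not overlap between the genotypes, whereas Hk2, Ppp1r3a and Phka1 do.

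Marker lists of fibre types and of other cells were read beside these genes. Of the 5 defining muscle fibre genes, 1 was called, Ckm (muscle creatine kinase), higher at a log2 fold change of 0.49 (adjusted p = 0.0433 by edgeR). Of 10 fast fibre markers tested, 2 were called, both higher and without overlap, Actn3 (alpha-actinin of fast fibres) at 0.69 (adjusted p = 0.0081 by edgeR) and Myh1 (a fast myosin heavy chain) at 0.59 (0.0150). The fast markers did not share a direction, with 7 log2 fold changes positive and 3 negative. Without overlap, 3 were higher and 1 was lower, Pvalb (parvalbumin) at −0.23 (adjusted p = 0.347 by edgeR). Among all genes tested, 24.6% did not overlap. The sums of the fast list overlapped, between 113678 and 124813 CPM in WT and between 121229 and 135180 CPM in KO mice. The 10 slow fibre markers summed to 1079, 1177 and 1861 CPM in WT mice 583, 584 and 595 and to 1531, 2280 and 1633 CPM in KO mice 588, 589 and 591. KO mouse 589, highest for Ldhb, was also highest for these markers, 10 of 10 had a positive log2 fold change, 0 were called by edgeR (5 had an unadjusted p under 0.05) and the sums overlapped between the genotypes. The 6 adipocyte markers summed to between 2661 and 4048 CPM in WT mice and to 3099, 6843 and 3486 CPM in KO mice 588, 589 and 591, with 0 called by edgeR (2 had an unadjusted p under 0.05), 5 log2 fold changes positive and that of Lep at −1.01. The 8 leukocyte markers tested were all lower on the log2 scale, 2 of them called, with sums of 946 to 1137 CPM in WT and 492 to 641 CPM in KO mice. The 6 red blood cell markers summed to between 4748 and 10392 CPM in WT and 4166 to 4536 CPM in KO mice, with 0 called by edgeR (5 had an unadjusted p under 0.05). All 4 endothelial markers had a negative log2 fold change, with sums of 83.4 to 96.3 CPM in WT and 64.8 to 79.3 CPM in KO mice, and 1 was called, Cdh5 (VE-cadherin), at −0.64 (adjusted p = 0.0093 by edgeR). The 6 fibroblast and tendon markers also had negative log2 fold changes, with sums of 2686 to 3305 CPM in WT and 2395 to 2761 CPM in KO mice, and 0 were called by edgeR (1 had an unadjusted p under 0.05). In bulk muscle, fewer cells of a type and less RNA per cell cannot be told apart, and the part of these markers in the member values was not tested.

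The entry enzymes had 0 of 3 members called and a median log2 fold change of 0.053. Hk2, the insulin-responsive muscle hexokinase, was at 48.2, 61.0 and 54.7 CPM in WT and 69.5, 77.7 and 60.02 CPM in KO mice, each in the order of mouse numbers given above. KO mouse 591 lay below WT mouse 584, and the log2 fold change was 0.34 (95% interval 0.08 to 0.59, adjusted p = 0.139 by edgeR). Hk1, the hexokinase of most other cells and of red blood cells, was at 10.7, 11.7 and 12.1 CPM in WT and 10.5, 9.29 and 8.36 CPM in KO mice. Its genotypes did not overlap, and the log2 fold change was −0.29 (95% interval −0.57 to −0.02, adjusted p = 0.228 by edgeR). Gpi1, which isomerises glucose 6-phosphate, was at 512 to 567 CPM in WT and 540 to 596 CPM in KO mice, with a log2 fold change of 0.05 (SE 0.09).

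Shares of isozymes within a step were taken from CPM per kb of the main GENCODE vM21 transcript, for 9 steps. Hk2 made up 77.8%, 80.2% and 77.9% of Hk1 and Hk2 together in WT mice 583, 584 and 595, and 83.6%, 86.6% and 84.8% in KO mice 588, 589 and 591. The genotypes did not overlap, with a difference of 6.42 percentage points. Ldhb made up 3.13%, 3.16% and 4.01% of Ldha and Ldhb in WT and 4.12%, 5.99% and 4.50% in KO mice, a difference of 1.43 percentage points. Both differences had p = 0.1 in an exact two-sided permutation test, the smallest p that 3 mice against 3 can give (Benjamini-Hochberg adjusted p = 0.525 over the 21 shares by the same exact test). The genotypes did not overlap in 2 of the 9 steps, and for levels of single genes 24.6% of all genes tested did not overlap. The muscle isozyme held 96.7 ± 0.476% of phosphofructokinase (Pfkm), 99.5 ± 0.109% of phosphoglycerate mutase (Pgam2) and 97.9 ± 0.530% of enolase (Eno3) in WT muscle (SD, n = 3). In KO muscle these shares were 97.0 ± 0.456%, 99.4 ± 0.144% and 98.2 ± 0.390%, within the spread between mice.

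**Figure D2:**
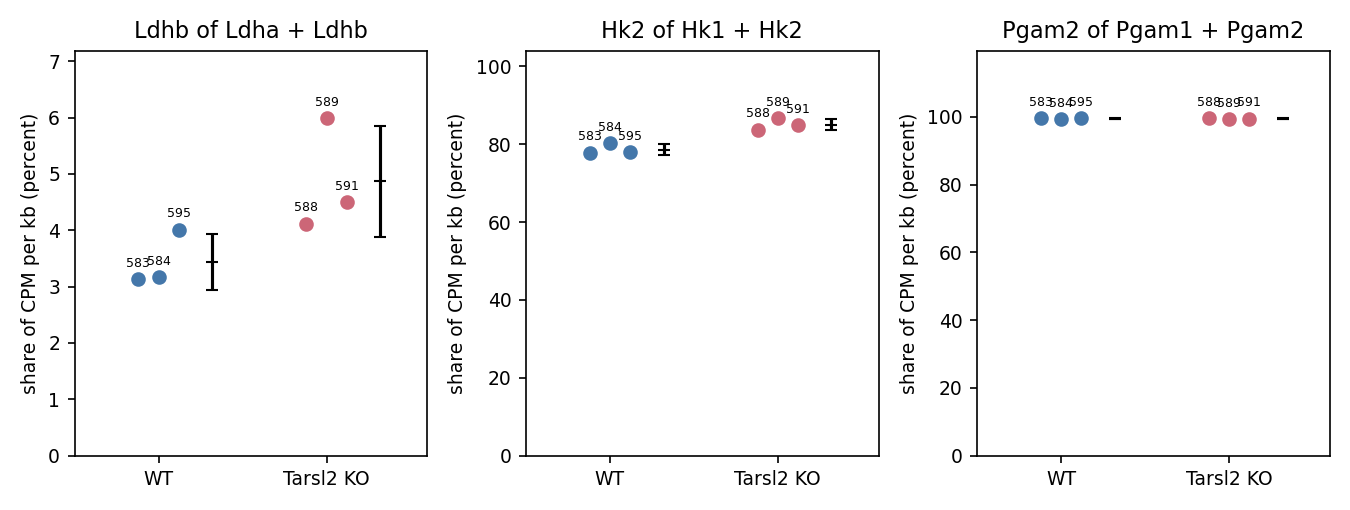
Share of CPM per kb of transcript (percent, axis from 0) held by Ldhb, Hk2 and Pgam2 within their enzyme step, by mouse, with the mean and SD of 3 mice in black. The KO mice lie above all WT mice for Ldhb and Hk2, and Pgam2 is near 99% in all 6 mice.

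Among phosphofructokinase and its regulators, 1 of 8 members was called, Fbp2, and the median log2 fold change was 0.025. Pfkm, the muscle phosphofructokinase, was at 668, 679 and 703 CPM in WT and 706, 657 and 659 CPM in KO mice. Its log2 fold change was −0.02 (95% interval −0.21 to 0.17). Pfkfb1, a kinase and phosphatase of fructose 2,6-bisphosphate in liver and muscle, was at 27.7, 31.5 and 33.3 CPM in WT and 37.5, 38.1 and 36.4 CPM in KO mice. All KO mice were above all WT mice, and the log2 fold change was 0.28 (SE 0.09, adjusted p = 0.133 by edgeR). The liver and platelet isozymes Pfkl and Pfkp had log2 fold changes of −0.03 and −0.27, and the other regulators Pfkfb2, Pfkfb3 and Pfkfb4 had 0.28, −0.01 and 0.06, none called.

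From aldolase to pyruvate kinase 0 of 10 tested rows were called, and the median log2 fold change was −0.043. Aldoa, the muscle aldolase, was at 4525, 5711 and 4641 CPM in WT and 6370, 4635 and 6696 CPM in KO mice on its main row. KO mouse 589 lay among the WT mice, and the log2 fold change was 0.25 (95% interval −0.08 to 0.58, adjusted p = 0.392 by edgeR). The other Aldoa row (ENSMUSG00000114515) was at 4.21, 5.90 and 4.09 CPM in WT and 2.79, 3.37 and 2.62 CPM in KO mice, without overlap, with a log2 fold change of −0.70 (SE 0.21, adjusted p = 0.101 by edgeR). The main row spans chr7:126795234-126808905 in the table and overlaps the other row at chr7:126800790-126809108 on the same strand, so reads could be split between them. Tpi1, Pgk1, Pgam1, Pgam2, Eno1 and Pkm had log2 fold changes between −0.09 and 0.02. Eno3, the muscle enolase, was at 4254, 4237 and 4079 CPM in WT and 4727, 4450 and 5016 CPM in KO mice, without overlap, at 0.18 (SE 0.10, adjusted p = 0.368 by edgeR).

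Gapdh, which oxidises glyceraldehyde 3-phosphate, varied within each genotype far more than any other member. Its levels were 39.8, 543 and 506 CPM in WT mice 583, 584 and 595 and 410, 192 and 11.8 CPM in KO mice 588, 589 and 591. WT mouse 583 and KO mouse 591 were low, and the genotypes overlapped. The largest value in a genotype was 13.7 times the smallest in WT and 34.8 times in KO. With 0.5 CPM added, this ratio was 33.4 and ranked 1 among 7955 genes of at least 10 CPM on average, against 2.34 for Ppp1r3c, the next member, and a median of 1.25 over 33 other members. The log2 fold change was −0.83 (SE 0.95, 95% interval −2.91 to 1.26, adjusted p = 0.680 by edgeR), and it moved between −1.84 and −0.27 as each mouse was left out. Under a filter that admits a gene with a single count in some library, edgeR called Gapdh lower (adjusted p = 1.2e-12) at −0.84. That filter also raised the count of all genes called from 342 to 1437. With the genotypes overlapping, this call is not read as a difference between them. The cause of the spread was not tested.

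Per kb of transcript, Gapdh was at 28.0, 383 and 357 CPM in WT and 289, 135 and 8.32 CPM in KO mice. The neighbouring enzymes did not share the pattern, with Tpi1 between 1229 and 1365 and Pgk1 between 615 and 755 CPM per kb over all 6 mice. Aldoa per kb was 8.40 times Gapdh in WT mouse 595 and 520 times in KO mouse 591.

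Of the distinct 31-base words of the main Gapdh transcript, 84.1% also occurred in transcripts of other genes, the largest share among the members, followed by Eno1 (77.2%) and Pgk1 (68.3%). At least 10% of these words were held by each of 114 other genes, 107 of them pseudogenes. The 106 of those pseudogenes that are in the table summed to 217, 269 and 213 CPM in WT and 263, 300 and 297 CPM in KO mice. The summed pseudogene level did not follow Gapdh, and its largest within-genotype ratio was 1.26. Gapdh and these pseudogenes together were at 257, 811 and 719 CPM in WT and 673, 493 and 309 CPM in KO mice. The largest within-genotype ratio of this joint sum was 3.16. Gm7336, which holds all of the shared words, was at 37.6, 41.2 and 25.3 CPM in WT and 37.9, 56.6 and 60.6 CPM in KO mice. Reads of Gapdh and of its copies may be split in the counting, which the sources used here do not describe.

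**Figure D3:**
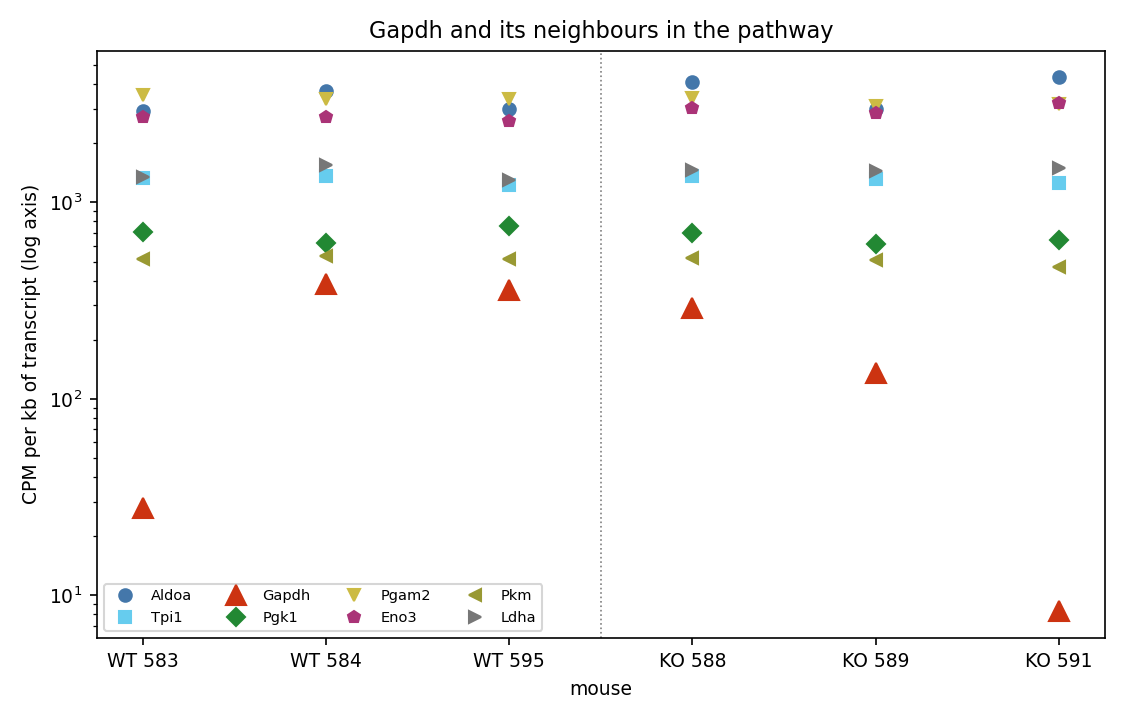
CPM per kb of transcript on a log axis for Gapdh (large triangles) and 7 other enzymes of the pathway, in each of the 6 mice, with WT left of the dotted line and Tarsl2 KO right. Gapdh falls to 28.0 in WT mouse 583 and 8.32 in KO mouse 591, whereas Tpi1 stays between 1229 and 1365.

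The genes whose log2 CPM followed Gapdh most closely over the 6 libraries were Chuk (Pearson r = 0.993), Exosc4 (0.983) and Gm7862 (0.981). Chuk varied between 14.2 and 17.6 CPM and Exosc4 between 21.1 and 24.5 CPM, and Gm7862 varied 5.19-fold, between 0.194 and 1.01 CPM. These genes were picked for the highest correlations among all tested genes outside the members. With 6 points, such a pick by itself favours high values of r. The points share library and depth, and no test was made.

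For lactate, 1 of 4 members was called, Ldhb, and the median log2 fold change was −0.014. Ldha, the subunit that prevails in fast muscle, was at 2384, 2732 and 2302 CPM in WT and 2566, 2541 and 2638 CPM in KO mice. The genotypes overlapped, and the log2 fold change was 0.06 (95% interval −0.16 to 0.29). Slc16a1 and Slc16a3, the monocarboxylate transporters MCT1 and MCT4, had log2 fold changes of −0.10 and −0.09.

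Glycogen breakdown had 0 of 6 members called and a median log2 fold change of 0.015. Pygm, the muscle glycogen phosphorylase, was at 935, 1105 and 859 CPM in WT and 1113, 1106 and 1064 CPM in KO mice, with WT mouse 584 among the KO mice. Its log2 fold change was 0.18 (95% interval −0.06 to 0.42). The phosphorylase kinase subunits did not share a direction. Phka1 was at 161, 154 and 174 CPM in WT and 155, 139 and 124 CPM in KO mice, at −0.23 (SE 0.10, adjusted p = 0.240 by edgeR). Phkb was at −0.18 (95% interval −0.43 to 0.07) and Phkg1 at 0.19 (95% interval −0.08 to 0.46). Of the 31-base words of Phkg1, 25.6% also occur in Sumf2, which its row overlaps. The phosphoglucomutase of muscle, on chromosome 4 and listed as Pgm2 but named Pgm1 in GENCODE vM21, was at 453 to 611 CPM in WT and 498 to 564 CPM in KO mice. The row listed as Pgm1, named Pgm2 there, was at 8.55 to 11.6 CPM.

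Glycogen synthesis and targeting had 0 of 6 members called and a median log2 fold change of 0.10. Ppp1r3a, which anchors protein phosphatase 1 to glycogen in muscle, was at 175, 168 and 160 CPM in WT and 233, 170 and 212 CPM in KO mice. KO mouse 589 lay among the WT mice, and the log2 fold change was 0.29 (SE 0.11, adjusted p = 0.184 by edgeR). Ugp2, which makes UDP-glucose, was at 461, 411 and 504 CPM in WT and 512, 426 and 415 CPM in KO mice, at −0.03 (95% interval −0.27 to 0.22). Gbe1, the branching enzyme, was at 48.2 to 60.5 CPM in WT and 61.4 to 63.5 CPM in KO mice, without overlap, at 0.14. Gys1, the muscle glycogen synthase, Gyg (glycogenin) and Ppp1r3c, another targeting subunit, had log2 fold changes of 0.19, −0.05 and 0.07.

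**Figure D4:**
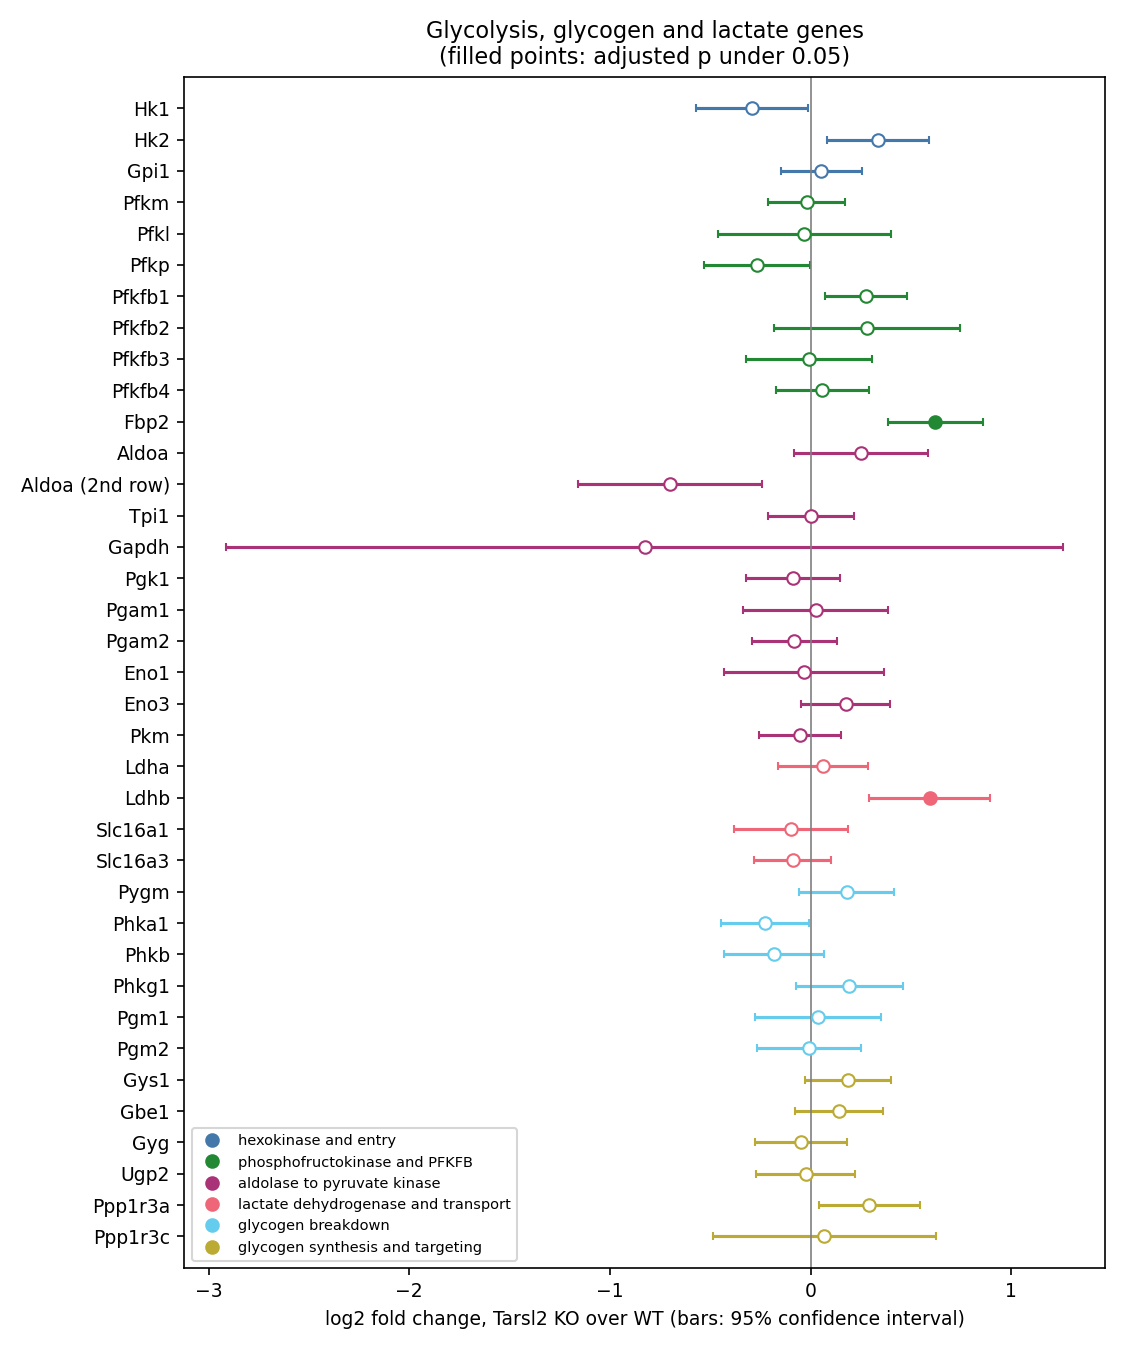
Log2 fold change (Tarsl2 KO over WT, horizontal axis) of the 37 tested member rows with 95% confidence intervals, coloured by role, with filled points for an adjusted p under 0.05. Fbp2 and Ldhb are the filled points, and Gapdh has the widest interval, −2.91 to 1.26.

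Over all tested member rows the median log2 fold change was 0.0019, against 0.0025 over all genes tested, with 19 rows positive and 18 negative. The genotypes did not overlap for 5 members higher in KO (Pfkfb1, Fbp2, Eno3, Ldhb and Gbe1) and for 2 rows lower (Hk1 and the minor Aldoa row). Among all genes tested, 24.6% did not overlap, 12.6% higher and 12% lower.

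Of 70 further genes of these pathways, 57 were tested, 1 was called higher and 0 lower by edgeR, with 10 at an unadjusted p under 0.05. Among all 15075 genes tested, 0.896% were called higher and 1.37% lower, and 2983 had an unadjusted p under 0.05. Epm2a, the glycogen phosphatase laforin, was at 25.8, 32.5 and 26.8 CPM in WT and 39.0, 42.2 and 45.9 CPM in KO mice, a log2 fold change of 0.58 (SE 0.11, adjusted p = 0.0214 by edgeR), without overlap. Gsk3a, a kinase of glycogen synthase, had 0.33 (adjusted p = 0.0975 by edgeR). Among further glycolysis genes, Ldhd, a D-lactate dehydrogenase, had 0.44 (0.0770). Among transporters, Slc37a4, the glucose 6-phosphate carrier of the endoplasmic reticulum, had −0.34 (0.0540) and Slc2a12 0.45 (0.142). In the pentose phosphate and hexosamine branches, Gfpt2 had −0.23 (0.335) and Pgd −0.20 (0.365).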

How the data were processed

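RNA-seq of muscle from 3 Tarsl2+/+ and 3 Tarsl2-/- mice was compared. The authors deposited a table of raw counts, whole reads assigned to each gene. The study's methods give a stranded poly(A) kit, paired-end reads and HISAT2 mapping to mm10, while the submitters' processing notes name Bowtie 0.12.2 and mm8. The submitters' extraction protocol names retina, whereas the study's methods name muscle. The counting tool is not given in the sources used here. In the table, 95.2% of the identifiers found in GENCODE vM21 had identical coordinates, and table coordinates are printed.

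Genes were kept by filterByExpr (minimum count 10, minimum total 15), given TMM factors and fitted in edgeR 4.0.16 (quasi-likelihood) in R 4.3.3, after a test on simulated data. SE was the log2 fold change over the square root of F. Isozyme shares used an exact permutation test (scipy). Library totals were 16176591 to 20123767. Groups came from the labels. Copies were found by 31-base words.

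The members and lists were chosen with earlier results of these data known. Named were called genes, Gapdh, each role's member of smallest p and of highest level, and for each further list the called genes and the 2 of smallest p. A result for 1 gene is not reported here. Other members named were chosen after their values were seen. Alternatives were DESeq2 1.42.0, limma-voom 3.58.1, other scalings and filters, and each mouse left out.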

Additional observations from a re-analysis of the deposited data

How the results depend on the processing

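The count of members called higher (2) was 1 with library totals without TMM, with upper quartile scaling, with RLE and with limma-voom, and between 0 and 2 as each mouse was left out. The count called lower (0) was 2 with at least 1 count in any library, where Gapdh and the minor Aldoa row were called, and Hk2 was called higher. The count of all genes called (342) was 670 by DESeq2 and 1437 with at least 1 count in any library, and between 81 and 625 as each mouse was left out. It was highest without WT mouse 584, whose counts differed from those of WT mouse 595 by a chi-square of 28.4 per gene, against 12.9 to 16.3 for the other pairs of a genotype. The cause was not tested. The sign of the log2 fold change changed under some alternative for 12 uncalled member rows, Pfkm and Ugp2 among them, none over 0.07 in size in the reported fit, and the other 25 tested rows kept theirs. Under the alternatives Ppp1r3c ran from −0.18 to 0.35 and Pfkl from −0.22 to 0.21. No paired analysis was made, because the sources used here do not link a given WT mouse to a given KO mouse. Depth kept Aldoc, at or below 0.437 CPM, out of the test.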
